A study of Bos taurus with 14 samples.

Results

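Mammary expression of the genes for de novo fatty acid synthesis was examined in dry, pregnant Holstein cows. The set was fixed by gene symbol and holds 8 genes: ACSS2, ACLY, AACS, ACACA, FASN, SCD, IDH1 and AGPAT1. They were measured by 12 probe sets, of 24016 tested. IDH1 has 3 of these, ACACA and AACS have 2 each, and the other genes have 1 each. The whole array names 9155 genes. For each gene, the probe set of the highest mean over the arrays is called the leading probe set, and its values are given unless another is named.

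The 14 arrays fall into 4 groups: short day (SD) at day -9, 4 arrays; long day (LD) at day -9, 4 arrays; SD at day -24, 3 arrays; and LD at day -24, 3 arrays. Days are counted from calving. SD cows had 8 h of light and 16 h of dark, and LD cows had 16 h of light and 8 h of dark, from drying off about 60 d before the predicted calving onward. All groups were Holstein cows in the dry period, so no array represents a milked gland. The labels do not tie arrays to cows. The p-values therefore measure the spread between these arrays, part of which may be technical. The RNA came from biopsies of whole tissue. Of the 14 luminal epithelial markers measured, the mean signals ran from 5.29 for EHF to 12.54 for KRT19 on the log2 scale, all above the lower quartiles of the arrays. All values below are deposited log2 signals from robust multi-array average (RMA), so a difference of 1 is a doubling. Levels of different probe sets cannot be set against each other.

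Milk fat is made in the luminal epithelial cell from fatty acids built there and from fatty acids taken up from blood. In ruminants the carbon for synthesis comes mainly from acetate and ketone bodies and little from glucose. ACSS2, ACLY and AACS supply activated carbon, ACACA makes malonyl-CoA in the committed step, and FASN builds the chain. SCD then puts a double bond into the product, IDH1 is a cytosolic source of the reducing power (NADPH) that the pathway uses, and AGPAT1 attaches fatty acids to the glycerol backbone.

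Array medians over all probe sets lay between 6.43 and 6.61, and the correlation between arrays, across probe sets, between 0.950 and 0.992. A pair of arrays, replicate 4 of LD at day -9 and replicate 3 of SD at day -24, read at least 0.7 below every other array in 280 probe sets, and 0 of the 12 fatty acid synthesis probe sets were among them. Results without this pair of arrays are given where they differ.

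**Figure D1:**
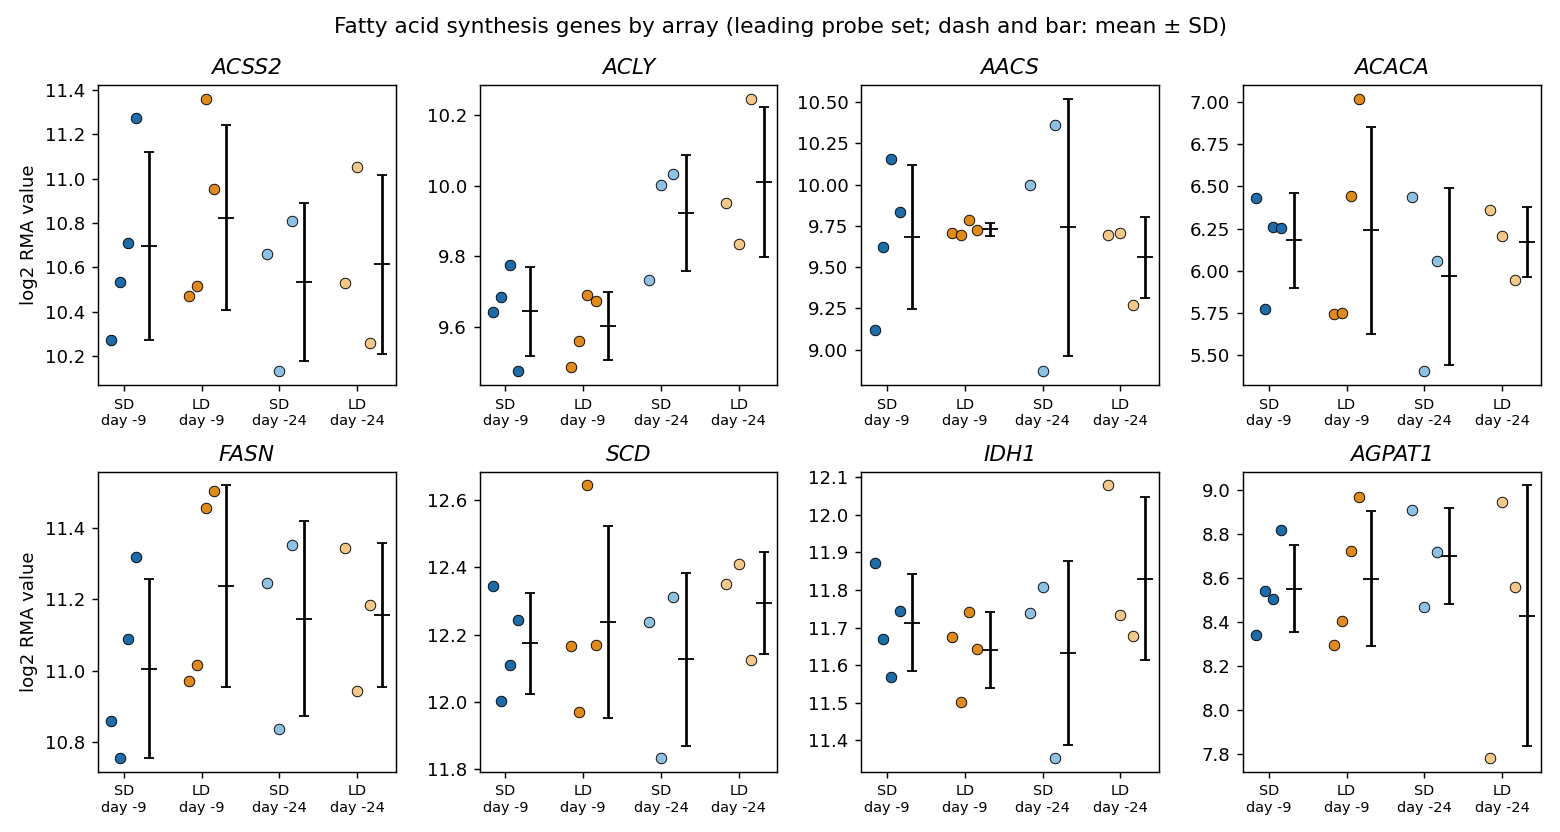
Log2 RMA value (vertical axis) of the leading probe set of each of the 8 genes in every array, for SD and LD at day -9 and SD and LD at day -24, with a dash and bar for the group mean ± standard deviation. The groups overlap in most panels, while in ACLY 7 of the 8 arrays of day -9 lie below the lowest array of day -24.

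ACSS2, the cytosolic acetyl-CoA synthetase, activates acetate, the main precursor in the bovine gland. It stood at 10.27, 10.53, 10.71 and 11.27 in SD and at 10.47, 10.52, 11.36 and 10.95 in LD at day -9. The day -24 arrays read 10.66, 10.13 and 10.81 in SD and 10.53, 11.05 and 10.26 in LD. All 4 groups overlapped, with high and low arrays in each. The SD minus LD difference was -0.13 (95% interval -0.69 to 0.44) at day -9 and -0.08 (-0.73 to 0.57) at day -24.

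ACLY, ATP citrate lyase, makes acetyl-CoA from citrate and so carries carbon of glucose origin. It stood at 9.64, 9.69, 9.78 and 9.47 in SD and at 9.49, 9.56, 9.69 and 9.67 in LD at day -9. At day -24 it stood at 9.73, 10.0025 and 10.03 in SD and at 9.95, 9.83 and 10.25 in LD. The arrays of day -9 were low and tightly grouped, and the photoperiods overlapped within each day. The mean was 9.64 ± 0.13 in SD and 9.60 ± 0.10 in LD at day -9 (standard deviation, n = 4 each), and 9.92 ± 0.16 in SD and 10.01 ± 0.21 in LD at day -24 (standard deviation, n = 3 each).

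AACS, acetoacetyl-CoA synthetase, activates the ketone body acetoacetate for lipid synthesis. It stood at 9.12, 9.62, 10.15 and 9.84 in SD and at 9.71, 9.69, 9.79 and 9.73 in LD at day -9. The earlier arrays, of day -24, read 9.99, 8.87 and 10.36 in SD and 9.70, 9.71 and 9.27 in LD. With this probe set, the SD arrays spread more widely than the LD arrays on both days, on either side of them. The mean ± standard deviation at day -9 was 9.68 ± 0.44 in SD and 9.73 ± 0.04 in LD, over 4 arrays each. For day -24 it was 9.74 ± 0.78 in SD and 9.56 ± 0.25 in LD, over 3 arrays each. The difference in spread was not tested. The SD minus LD difference at day -24 was 0.18 (-0.52 to 0.88). It was 0.62 when SD day -24 replicate 2 was left out and -0.13 when replicate 3 of that group was, so that single arrays set its sign. The second AACS probe set lay between 5.54 and 6.43, and its correlation with the leading one was 0.63 over the 14 arrays. Its standard deviation was 0.30 in SD and 0.25 in LD at day -9, but 0.34 in SD and 0.46 in LD at day -24, where LD spread more widely.

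ACACA, acetyl-CoA carboxylase alpha, catalyses the committed step of the pathway. It stood at 6.43, 5.78, 6.26 and 6.25 in SD and at 5.75, 5.75, 6.44 and 7.02 in LD at day -9. At day -24 the values were 6.44, 5.40 and 6.06 in SD and 6.36, 6.21 and 5.95 in LD. LD at day -9 held both a pair of low arrays and the highest of all 14. SD minus LD at day -9 gave -0.06 (-0.68 to 0.56), and at day -24 it gave -0.20 (-0.92 to 0.51). The second ACACA probe set lay between 3.99 and 5.44, around the lower quartiles of the arrays (4.47 to 4.73). It moved with the leading one across arrays, with a Pearson correlation of 0.91.

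FASN, the fatty acid synthase, builds the chain from malonyl-CoA. It stood at 10.86, 10.76, 11.09 and 11.32 in SD and at 10.97, 11.02, 11.46 and 11.50 in LD at day -9. At day -24 it stood at 11.25, 10.84 and 11.35 in SD and at 11.34, 10.94 and 11.18 in LD. The highest pair of arrays was in LD at day -9 and the lowest array in SD at day -9, but these groups overlapped, with a difference of -0.23 (-0.61 to 0.15), which was -0.14 without LD day -9 replicate 4. At day -24 the difference was -0.01 (-0.45 to 0.43).

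SCD, stearoyl-CoA desaturase, stood at 12.34, 12.001, 12.11 and 12.24 in SD and at 12.17, 11.97, 12.64 and 12.17 in LD at day -9. On day -24 the gene read 12.24, 11.83 and 12.31 in SD and 12.35, 12.41 and 12.12 in LD. All groups overlapped, and SD minus LD gave -0.06 (-0.40 to 0.28) at day -9, with -0.17 (-0.56 to 0.22) at day -24.

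AGPAT1, an acyltransferase that makes phosphatidic acid on the way to triacylglycerol, stood at 8.34, 8.54, 8.51 and 8.82 in SD and at 8.29, 8.40, 8.72 and 8.97 in LD at day -9. In the arrays of day -24 it was at 8.91, 8.47 and 8.72 in SD and at 7.78, 8.94 and 8.56 in LD. LD day -24 replicate 1, at 7.78, was the lowest of the 14 arrays. The SD minus LD difference was -0.05 (-0.54 to 0.44) at day -9. At day -24 it was 0.27 (-0.29 to 0.84), and without LD day -24 replicate 1 it was -0.05.

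The comparison of SD with LD asks whether the light schedule of the dry period moved these genes. At day -9, 2 of the 8 genes were above 0 and 6 below it, with a median log2 difference of -0.05, against 0.00 over all probe sets. At day -24, again 2 were above 0 and 6 below it, with a median of -0.08, against 0.01 over all probe sets. Averaged over days the median was -0.08, with differences between -0.13 for ACACA and 0.11 for AGPAT1. Differences were tested with limma's moderated test, two-sided, with p-values adjusted over all 24016 probe sets (Benjamini-Hochberg, threshold 0.05). In these 3 comparisons 0 of the 12 probe sets passed, and the share over all probe sets was 0% in each. At an unadjusted p under 0.05 there were also 0 of 12 in each, against 2.77% of all probe sets at day -9, 2.42% at day -24 and 1.94% for the average. The groups of SD and LD arrays overlapped in all 12 probe sets at both days, while 2.46% of all probe sets did not overlap at day -9 and 5.67% at day -24. At their farthest end, the 95% intervals of the 8 leading probe sets reached a 1.62-fold change at day -9 and 1.89-fold at day -24. For the average of the days they reached 1.52-fold. Over all 12 probe sets they reached 1.77-fold at day -9, 2.38-fold at day -24 and 1.53-fold for the average. Each of these bounds belongs to the widest interval, and single genes had narrower ones. For ACLY at day -9, the SD minus LD interval ran from -0.22 to 0.30. Changes within a gene's own interval were not excluded. Comparisons at one day and comparisons between days share the arrays of that day.

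**Figure D2:**
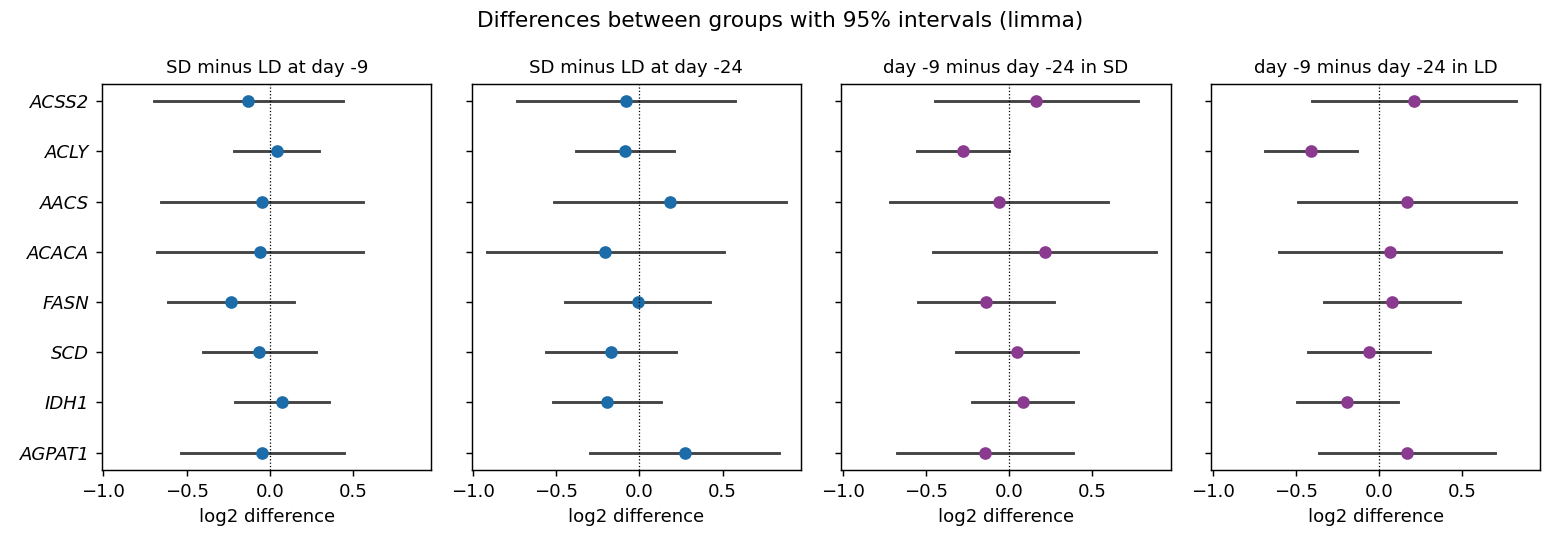
Log2 difference (horizontal axis) of the leading probe set of each gene for SD minus LD at day -9, SD minus LD at day -24, and day -9 minus day -24 in SD and in LD, with the 95% interval of the limma fit. Among these intervals only those of ACLY between days lie wholly below 0, by a narrow margin in SD, where the interval runs from -0.56 to -0.0013.

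The comparison of day -9 with day -24 asks which of these genes differ closer to calving. ACLY stood lower at day -9 in both photoperiods. In SD the difference was -0.28 (95% interval -0.56 to -0.0013), with an unadjusted p = 0.0491 and a limma adjusted p = 0.970, and the highest array of day -9 (9.78) lay above the lowest of day -24 (9.73). In LD the difference was -0.41 (standard error 0.13, 95% interval -0.68 to -0.13), which is 1.33-fold lower, with an unadjusted p = 0.00726 and a limma adjusted p = 0.651. All 4 arrays of LD at day -9 lay below all 3 of LD at day -24. Averaged over photoperiods the difference was -0.34 (standard error 0.09, -0.54 to -0.15), with an unadjusted p = 0.00227 and an adjusted p = 0.636. The averaged ACLY difference ranked 72 by p among the 24016 probe sets and did not pass the threshold. In whole tissue, fewer cells of a type and less RNA per cell cannot be told apart.

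The difference of ACLY between days kept its direction in each alternative fit, within SD, within LD and averaged. Averaged over photoperiods it lay between -0.39 and -0.28 when single arrays were left out. In SD it was -0.18 with array weights and -0.22 without the 2 arrays of low signal. The difference between the photoperiods in their day difference was 0.13 (-0.26 to 0.52), an interval that spans 0.

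The other 7 genes differed between days by -0.15 to 0.21 in SD and by -0.19 to 0.21 in LD. Over the 8 genes the median was -0.01 in SD, against -0.01 over all probe sets, and 0.07 in LD, against 0.00 over all probe sets. After adjustment 0 of 12 probe sets passed in SD, in LD and averaged over photoperiods, with 0% of all probe sets passing in each. At an unadjusted p under 0.05 there was 1 of 12 in SD (ACLY), against 4.56% of all probe sets, 2 of 12 in LD (ACLY and the third IDH1 probe set), against 7.47%, and 1 of 12 averaged over photoperiods (ACLY), against 7.72%. The groups of day -9 and day -24 did not overlap in 2 of 12 probe sets in LD, the same ones, against 8.98% of all probe sets, and in 0 of 12 in SD, against 5.9%. The intervals of the 8 leading probe sets reached 1.84-fold in SD and 1.77-fold in LD, and those of all 12 reached 2.27-fold in SD and 1.86-fold in LD. For the interaction of photoperiod and day, 0 of 12 passed after adjustment, with 0% over all, and 0 of 12 had an unadjusted p under 0.05, against 4.15% of all probe sets.

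Tissue markers and RNA quality were set beside these differences. Of 12 measured adipocyte markers, 11 were above 0 for day -9 minus day -24 averaged over photoperiods, with a median of 0.28. The mean of the list ran over 5.92 to 6.59 in SD and 5.95 to 6.48 in LD at day -9, and over 5.68 to 5.97 in SD and 5.79 to 6.08 in LD at day -24. Of the 12, ADIPOQ, LEP and PCK1 averaged 3.61, 3.54 and 3.47, below the lowest of the arrays' lower quartiles (4.47). Above the array medians, CFD averaged 7.09, G0S2 8.79, LPL 9.68 and FABP4 11.64. Of 14 luminal epithelial markers, 11 were above 0, with a median of 0.08. Myoepithelial markers had 7 of 9 above 0 (median 0.35), neutrophil markers 4 of 4 (0.36) and macrophage and dendritic markers 3 of 5 (0.30). Endothelial markers had 8 of 8 above 0 (median 0.07) and lymphocyte markers 0 of 10 (-0.11). Fibroblast and matrix markers had 4 of 9 above 0 (-0.01), skeletal muscle markers 4 of 6 (0.08) and erythrocyte markers 1 of 3 (-0.0047). In none of these lists did a marker pass after adjustment. The 3-prime minus 5-prime log2 signal of control genes is a sign of RNA quality. For GAPDH it was 1.34 to 1.44 in SD and 1.27 to 1.49 in LD at day -9. At day -24 the GAPDH value was 1.34 to 1.84 in SD and 1.47 to 1.65 in LD. Averaged over GAPDH and the other control genes used, it was 0.84 to 0.99 in SD and 0.80 to 1.21 in LD at day -9. At day -24 this average was 0.98 to 1.33 in SD and 0.90 to 1.12 in LD. Its highest arrays were SD day -24 replicate 3 (1.33), SD day -24 replicate 2 (1.26) and LD day -9 replicate 4 (1.21). The average is not scaled by gene. The control gene eIF-4E, which ran from 3.16 to 4.60 over the arrays, varied most and so weighs most in it. With the mean of the 9 adipocyte markers that stand in no other list as a term in the fit, the averaged ACLY difference was -0.37. With the mean of the 14 luminal markers it was also -0.37. The 9 leave out LPL, which also stands among the fatty acid uptake genes, so that term covers only part of the adipocyte list. The part of RNA quality and of the cell types without a term in the fit was not tested.

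IDH1, the NADP-dependent isocitrate dehydrogenase of the cytosol, was read by 3 probe sets that gave different pictures. The leading one stood at 11.87, 11.67, 11.57 and 11.74 in SD and at 11.68, 11.50, 11.74 and 11.64 in LD at day -9. The day -24 arrays read 11.74, 11.81 and 11.35 in SD and 12.08, 11.73 and 11.68 in LD. Its groups overlapped, with an SD minus LD difference of 0.07 (-0.21 to 0.35) at day -9 and -0.20 (-0.52 to 0.13) at day -24. The first was 0.02 without SD day -9 replicate 1, and the day -24 value was -0.06 without SD day -24 replicate 3.

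The second IDH1 probe set stood at 10.11, 9.82, 9.74 and 10.40 in SD and at 9.80, 9.72, 10.31 and 9.30 in LD at day -9. At day -24 the values were 9.41, 9.97 and 9.01 in SD and 10.54, 10.08 and 9.51 in LD. Its lowest array was SD day -24 replicate 3 and its highest was LD day -24 replicate 1. SD minus LD gave 0.24 (-0.35 to 0.82) at day -9, which was 0.08 without LD day -9 replicate 4. The SD minus LD difference at day -24, -0.58 (-1.25 to 0.10), was the largest between photoperiods of the 12 probe sets, with an unadjusted p = 0.0894. Leaving out its lowest array gave -0.35, leaving out its highest gave -0.33, and leaving out LD day -24 replicate 3 gave -0.84. For day -9 minus day -24, the difference was 0.55 (-0.08 to 1.18) in SD and -0.26 (-0.89 to 0.37) in LD. In SD it was 0.32 without SD day -24 replicate 3, and in LD it was -0.01 without LD day -24 replicate 1. The interaction was 0.81 (-0.08 to 1.71), with an unadjusted p = 0.0721 and a limma adjusted p = 0.900. Without the 2 arrays of low signal, of which 1 is the lowest array here, the interaction was 0.42, and with array weights it was 0.38.

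The third IDH1 probe set stood at 9.5003, 9.91, 9.76 and 9.84 in SD and at 9.81, 9.88, 9.99 and 10.05 in LD at day -9. In the arrays of day -24 it was at 9.82, 9.48 and 9.97 in SD and at 9.27, 9.80 and 9.64 in LD. In LD every array of day -9 lay above every array of day -24, with a difference of 0.36 (0.03 to 0.70), an unadjusted p = 0.0368 and an adjusted p = 0.651. In SD the difference was -0.0039 (-0.34 to 0.33). The LD difference was 0.22 without LD day -24 replicate 1, the lowest array, and 0.21 with array weights.

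Over the 14 arrays the leading and the second probe set had a Pearson correlation of 0.76 (Spearman 0.78). It was 0.46 without the 2 arrays farthest from the median of the leading probe set. In each pair the 2 farthest arrays were chosen by the probe set named first alone. The leading and the third had a correlation of -0.74 (Spearman -0.59), -0.53 without the 2 farthest arrays and -0.71 within groups. The second and the third had -0.50, and -0.17 without the 2 farthest arrays. After adjustment none of the 3 passed in any comparison, and the sign of a difference depended on which probe set was read. These are descriptions over arrays that share their normalization. What each probe set targets was not analysed here.

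**Figure D3:**
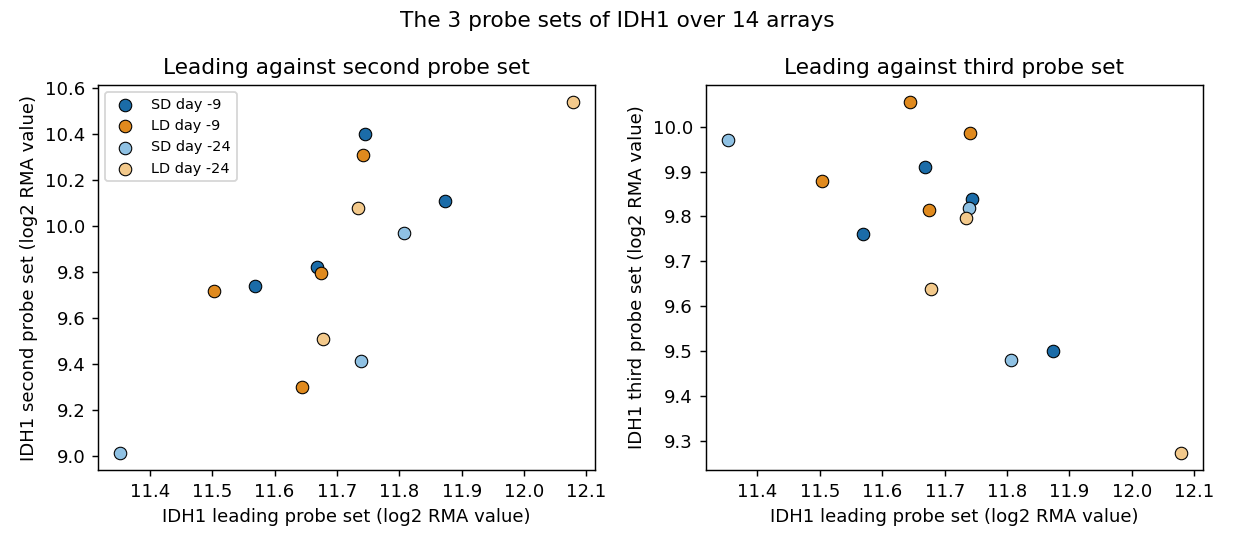
Log2 RMA values of the leading IDH1 probe set (horizontal axes) against the second (left) and the third (right), 1 point per array, coloured by group. The second moves with the leading one (Pearson correlation 0.76) and the third against it (-0.74), with SD day -24 replicate 3 and LD day -24 replicate 1 at the ends.

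The 8 genes differed in how much they varied between arrays of a group. The pooled standard deviation within groups was 0.45 for ACACA, 0.44 for AACS, 0.41 for ACSS2 and 0.35 for AGPAT1. It was 0.26 for FASN and 0.22 for SCD. It was 0.17 for the leading IDH1 probe set and 0.15 for ACLY, against a median of 0.24 over all probe sets. The second IDH1 probe set had 0.42, at the percentile 84.8, and the third had 0.20. ACACA lay at the percentile 86.8 of all probe sets by this spread and ACLY at 14.9. ACLY thus had the smallest spread of the 8 genes.

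Extreme arrays recurred across genes. SD day -24 replicate 2 was the lowest of the 14 arrays in 4 of the 8 genes, ACACA, SCD, ACSS2 and AACS. LD day -9 replicate 4 was the highest in 3, ACACA, FASN and AGPAT1, and LD day -9 replicate 3 in 2, SCD and ACSS2. SD day -24 replicate 2 also had the highest GAPDH 3-prime minus 5-prime difference of all arrays (1.84). Its means of the milk fat globule genes (9.63), adipocyte markers (5.68) and milk protein genes (12.46) were the lowest of all arrays. The part of these in its low values was not tested. Without SD day -24 replicate 2, the SD minus LD difference at day -24 was 0.08 for ACACA, 0.14 for FASN and -0.02 for SCD.

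Over the 14 arrays, the genes varied together in part. Of the 28 pairs, 19 had a Pearson correlation above 0, with a median of 0.24 and a range from -0.52 to 0.67. The highest was ACACA with FASN, at 0.67 (Spearman 0.64, 0.48 without the 2 farthest arrays, 0.74 within groups). The 2 farthest arrays of a pair were those farthest from the median of a single gene, here the gene named first. ACACA, FASN, SCD, ACSS2 and AACS, a subset chosen after these values were seen, had correlations of 0.35 to 0.67 in their 10 pairs, and of 0.02 to 0.73 without the 2 farthest arrays of each pair. ACLY had -0.37 to 0.08 in its 7 pairs. IDH1, by its leading probe set, and AACS had -0.52, and -0.54 without the 2 farthest arrays. The third IDH1 probe set, at -0.74 with the leading one, was not set against the other genes, so the sign for IDH1 holds for the leading probe set alone. The arrays share normalization and tissue makeup, so these values are given as descriptions.

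**Figure D4:**
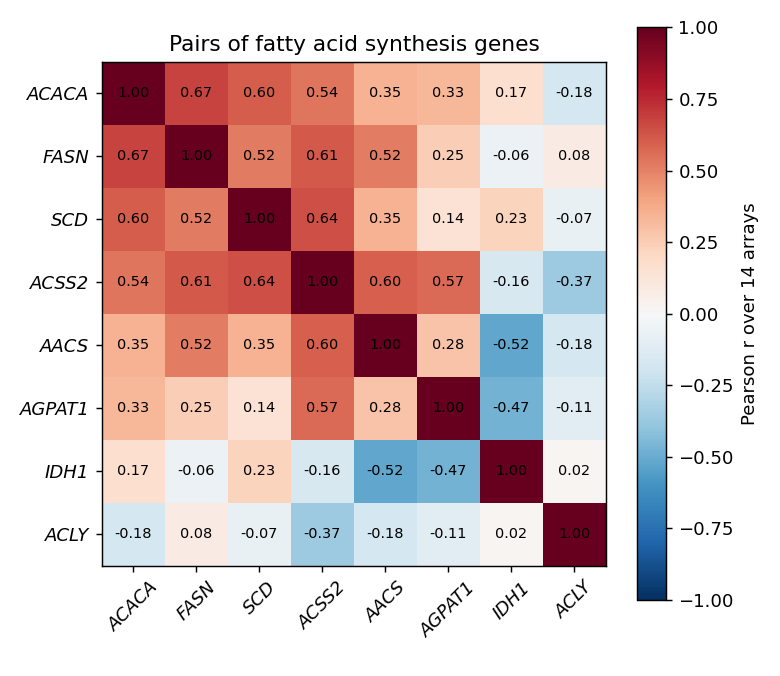
Pearson correlation over 14 arrays for each pair of the 8 genes, by their leading probe sets, on a colour scale from -1 to 1. ACACA, FASN, SCD, ACSS2 and AACS form a block of 0.35 to 0.67, and the ACLY row runs from -0.37 to 0.08.

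Lipid synthesis in the gland is controlled by SREBP1, encoded by SREBF1, which INSIG1 holds back, and by PPARG, LXR alpha (NR1H3) and THRSP. Over these 5 regulators and the 8 genes, 40 correlations were computed. SREBF1 stood at 9.0025, 9.48, 9.68 and 10.08 in SD and at 9.77, 9.51, 10.33 and 9.92 in LD at day -9. On day -24 the gene read 9.64, 9.21 and 10.26 in SD and 9.71, 10.14 and 9.67 in LD. Its groups overlapped, with an SD minus LD difference averaged over days of -0.23 (-0.66 to 0.20). ACSS2 followed SREBF1 across arrays, with a Pearson correlation of 0.85 (Spearman 0.79), 0.80 without the 2 farthest arrays and 0.91 within groups. AACS and FASN each had 0.68 with SREBF1 and SCD had 0.60. AGPAT1 had 0.46 and ACACA 0.34, while ACLY had -0.01 and IDH1 -0.33. INSIG1, itself a known target of SREBP1, had 0.70 with ACACA (Spearman 0.70, 0.60 without the 2 farthest arrays). The lowest of the 40 was NR1H3 with IDH1, at -0.75. It was -0.13 without the 2 arrays farthest from the NR1H3 median and so rests on them. For each regulator, the 2 farthest arrays were chosen by the regulator alone. IDH1 was read here by its leading probe set only, and its other probe sets were not set against the regulators.

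Of the tissue measures, the mean of 7 milk fat globule genes had the widest range of correlations with the 8 genes, from -0.71 for ACLY to 0.72 for ACACA. For ACACA it was 0.60 without the 2 arrays farthest from the median of the globule mean. In this paragraph the 2 farthest arrays were chosen by the tissue or control measure, not by the gene. For ACLY it was -0.46 without them and -0.68 within groups (Spearman -0.61). The GAPDH 3-prime to 5-prime difference had 0.71 with ACLY (Spearman 0.61), 0.59 without the 2 farthest arrays and 0.47 within groups. Averaged without scaling over the control genes used, GAPDH among them, this difference had 0.64 with ACLY (Spearman 0.58), 0.49 without the 2 farthest arrays and 0.59 within groups. The globule mean is not scaled by gene, so genes that vary more weigh more in it. Within groups, MUC1 and CIDEA had standard deviations of up to 1.36 and 1.44, against at most 0.27 for XDH. The globule mean averaged 10.75 in SD and 10.94 in LD at day -9, and 10.30 in SD and 10.52 in LD at day -24. Its part in the ACLY difference was not tested.

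**Figure D5:**
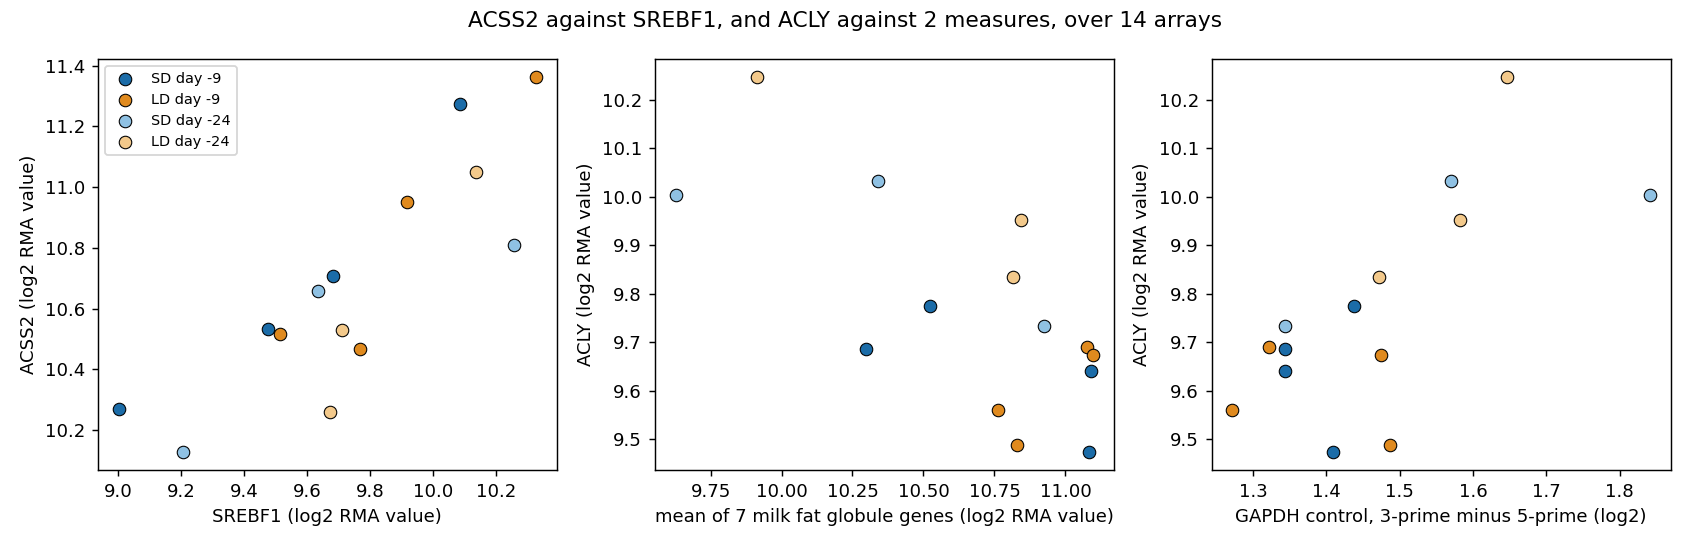
ACSS2 against SREBF1 (left), ACLY against the mean of 7 milk fat globule genes (middle) and ACLY against the GAPDH 3-prime minus 5-prime difference (right), 1 point per array, coloured by group, all on log2 scales. ACSS2 follows SREBF1 (Pearson correlation 0.85), and ACLY has -0.71 with the globule genes and 0.71 with the GAPDH difference.

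Outside the 8 genes, those whose leading probe sets were most alike to FASN over the 14 arrays were UBTD1 (Pearson correlation 0.86), AGT (0.83), TRIM11 (0.81), ZNF746 (0.80) and EZH2 (0.79). Most alike to the mean of the 8 genes, each scaled to the same spread, were AGT (0.85), FAM98A (0.84), THBS1 (0.84), TRIM11 (0.82) and TBC1D9B (0.81). They were the highest of all named genes and their values carry no test.

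Other genes of fatty acid synthesis, elongation and desaturation, 22 measured of 35 listed, had 4 above 0 and 18 below for SD minus LD at day -9 (median -0.09), and 17 above 0 and 5 below at day -24 (median 0.16). The interaction had 5 of 22 above 0 and a median of -0.26, against -0.02 over all probe sets, and the 8 genes had a median of 0.03. Over all probe sets the median was 0.00 at day -9 and 0.01 at day -24. After adjustment 0 of 22 passed in any comparison. The fatty acid desaturase gene FADS3 averaged 6.14 ± 0.54 in SD and 5.51 ± 0.40 in LD at day -24 (standard deviation, n = 3 each), a difference of 0.63 (unadjusted p = 0.0367), which was 0.33 without SD day -24 replicate 3. Over the 4 arrays of each photoperiod at day -9, the order was the other way, with 5.90 ± 0.34 in SD and 6.02 ± 0.13 in LD. ME1, cytosolic malic enzyme, which makes NADPH, averaged 5.93 ± 0.76 at day -9 and 4.99 ± 0.53 at day -24 in LD. The difference was 0.94, and 0.64 without LD day -24 replicate 1. In SD, ME1 averaged 5.32 at day -9 and 5.35 at day -24. OXSM, a mitochondrial 3-oxoacyl synthase, differed by 0.62 between days in LD, and by 0.42 without LD day -24 replicate 1. In SD, OXSM averaged 6.09 at day -9 and 5.99 at day -24.

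NADPH supply genes, 12 measured of 14, had 2 above 0 and 10 below for SD minus LD at day -9 (median -0.15), and 8 above 0 and 4 below at day -24 (median 0.04). NNT, the mitochondrial transhydrogenase, averaged 8.78 at day -9 and 9.04 at day -24 in SD, a difference of -0.26, but 8.93 at day -9 and 8.81 at day -24 in LD. Its interaction was -0.38, with an unadjusted p = 0.0234 and a limma adjusted p = 0.900. RPE, of the pentose phosphate pathway, averaged 8.46 at day -9 and 8.81 at day -24 in LD, a difference of -0.35, and 8.45 at day -9 and 8.54 at day -24 in SD. Among regulators of lipid synthesis, 29 measured of 35, 8 were above 0 and 21 below for SD minus LD at day -9 (median -0.05), and 15 and 14 at day -24 (median 0.02). PRKAA2, a catalytic subunit of the energy sensor AMPK, differed by 0.53 for SD minus LD at day -9 and by 0.59 for day -9 minus day -24 in SD, with group means between 3.68 and 4.27, below the lower quartiles of the arrays. NR1H3 differed by 0.53 between days in LD, and by 0.26 without LD day -24 replicate 1. In these lists 0 genes passed after adjustment.

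Fatty acid uptake genes, which bring preformed fatty acids from blood, had 9 of 11 measured above 0 for day -9 minus day -24 averaged over photoperiods, with a median of 0.31, against 0.00 over all probe sets. Milk fat globule genes had 6 of 7 above 0 (median 0.24), and genes of acyl activation and triacylglycerol synthesis 10 of 15 (median 0.07). The 8 synthesis genes had 4 above 0 and 4 below, with a median of 0.00. LPL, lipoprotein lipase, which also stands among the adipocyte markers, differed by 0.73, VLDLR, a lipoprotein receptor, by 0.49 and FABP3, which binds fatty acids in the cell, by 0.72. MUC1, a mucin of the globule membrane, differed by 1.13 and ACSM1, a medium-chain acyl-CoA synthetase, by 1.14. For FABP3 the difference was 0.40 without SD day -24 replicate 2, and for ACSM1 it was 0.76 without LD day -24 replicate 3. SLC27A6, a fatty acid transporter, averaged 9.57 ± 0.48 in SD and 8.78 ± 0.73 in LD at day -9 (standard deviation, n = 4 each), a difference of 0.79. Milk protein genes had 4 of 6 measured above 0 between days (median 0.02). LALBA, alpha-lactalbumin, differed by 0.59 between days averaged over photoperiods, and CSN1S2, the alpha-S2-casein gene, by 0.61 in SD. In SD, CSN1S2 averaged 12.52 at day -9 and 11.91 at day -24, but in LD 12.65 at day -9 and 12.52 at day -24. With single arrays left out, the CSN1S2 difference in SD ran from 0.42 (SD day -24 replicate 2 dropped) to 0.93 (replicate 1 of that group dropped). In these lists too, 0 genes passed after adjustment by limma and Benjamini-Hochberg, and the unadjusted p of the genes named here lay between 0.0239 and 0.0438.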

How the data were processed

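Expression was measured on Affymetrix bovine arrays in mammary biopsies, 14 arrays in 4 groups. The deposited values are log2 signals, which the authors summarised by RMA per the submitters' processing notes. The version is not given in the sources used here. Per the labels, RNA had an integrity number above 7 and 2 µg was used per array. Control probe sets (112) were left out, which leaves 24016 tested with no filter on signal. Of these, 13292 carry 1 gene symbol, 86 carry several and 10638 carry none. Genes of interest were matched by symbol.

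In R 4.3.3, limma 3.58.1 fitted the 4 group means over all arrays, with 7 contrasts, a two-sided moderated test and Benjamini-Hochberg adjustment over the tested probe sets. The procedure was tested on simulated data with independent noise and changes larger than any difference seen for the 8 genes. That test does not show how well differences of the size seen here are recovered. All probe sets of the 8 genes are reported, and from other lists up to 3 genes of smallest p per contrast. The members and lists were chosen with earlier results of these data known. Arrays have no read depth, and their number limits the precision. Alternatives were a signal filter, an intensity trend, array weights, median centring, fits on fewer groups, replicate blocks, marker covariates, the mean of a gene's probe sets, and fits without the 2 arrays of low signal or without each array in turn. No sequences or coordinates were used.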

Additional observations from a re-analysis of the deposited data

How the results depend on the processing

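No fatty acid synthesis probe set passed the adjusted threshold in the alternatives run. These covered all 7 comparisons, except that the fit on the compared groups alone covered the 4 between group pairs, and the mean of a gene's probe sets was tested over 9155 genes, the 8 members among them. Over 60 single-gene comparisons and 25 other settings, 1478 refits gave 73 turned signs and 0 passes, with a smallest limma adjusted p of 0.369. Differences of the main fit whose sign turned in some refit were at most 0.27 in size. With a mean signal of at least 5, 16655 probe sets and 11 of the 12 were tested. Over all probe sets, 1 passed for day -9 minus day -24 in SD without the 2 arrays of low signal and without SD day -24 replicate 3, and 1 for SD minus LD averaged over days without SD day -9 replicate 3. Same-numbered arrays of a photoperiod at both days had correlations of their deviations between -0.31 and 0.33 (median 0.20), with 4 of 6 over 0.1. Other-numbered arrays had a median of -0.12, with 4 of 18 over 0.1, and 7 of 12 arrays correlated best with their own number. The labels do not give pairs, so the main fit did not use the numbers. Whether a number marks a cow was not tested. With the replicate block, fixed or random (correlation 0.056), 0 of 12 passed in each comparison. Which cause lies behind the turned signs was not tested. With array weights, turned values were ACACA at 0.076, AGPAT1 at 0.067 and AACS at 0.087 for SD minus LD at day -9, then FASN at 0.057 for SD minus LD at day -24, then SCD at -0.013, IDH1 at -0.032, AACS at 0.093 and the third IDH1 probe set at 0.060 for day -9 minus day -24 in SD, then ACACA at -0.068, AGPAT1 at -0.19 and the second IDH1 probe set at 0.021 for day -9 minus day -24 in LD. With an adipocyte covariate (9 markers), turned values were ACACA at 0.027 and AACS at 0.044 for SD minus LD at day -9, then FASN at 0.061 and ACSS2 at 0.030 for SD minus LD at day -24, then ACACA at -0.030, SCD at -0.094, ACSS2 at -0.00446 and the third IDH1 probe set at 0.0104 for day -9 minus day -24 in SD, then ACACA at -0.10 and AACS at -0.00855 for day -9 minus day -24 in LD. With a luminal covariate, turned values were AACS at 0.11 for SD minus LD at day -9, then AACS at 0.18 for day -9 minus day -24 in SD. With the replicate block, turned values were ACACA at -0.074 and FASN at -0.017 for day -9 minus day -24 in LD. Without the 2 arrays of low signal, turned values were ACACA at 0.20 and AGPAT1 at 0.077 for SD minus LD at day -9, then AACS at -0.13 for SD minus LD at day -24, then IDH1 at -0.060, AACS at 0.25 and the third IDH1 probe set at 0.10 for day -9 minus day -24 in SD, then ACACA at -0.19 and FASN at -0.0090 for day -9 minus day -24 in LD. With the mean of a gene's probe sets, turned values were AACS at 0.086 for day -9 minus day -24 in SD. For SD minus LD at day -9, leaving out single arrays gave ACACA -0.22 to 0.20, SCD -0.15 to 0.072, ACLY -0.0023 to 0.098, ACSS2 -0.32 to 0.051, AGPAT1 -0.15 to 0.077 and AACS -0.20 to 0.14. For SD minus LD at day -24, leaving out single arrays gave ACACA -0.44 to 0.077, FASN -0.12 to 0.14, ACLY -0.18 to 0.030, ACSS2 -0.26 to 0.14, AGPAT1 -0.052 to 0.53 and AACS -0.13 to 0.62. For day -9 minus day -24 in SD, leaving out single arrays gave ACACA -0.068 to 0.45, SCD -0.099 to 0.14, ACSS2 -0.038 to 0.31, IDH1 -0.060 to 0.17, AACS -0.50 to 0.25 and the third IDH1 probe set -0.14 to 0.10. For day -9 minus day -24 in LD, leaving out single arrays gave ACACA -0.19 to 0.23, FASN -0.026 to 0.17, SCD -0.19 to 0.031 and AGPAT1 -0.15 to 0.43.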
